A study of Mus musculus with 6 samples.

Results

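The genes described here encode the translation initiation factors (eIFs) and elongation factors (eEFs) of mouse, with the enzymes and binding proteins that carry their names. They were taken as the probe sets whose single gene symbol begins with Eif1 to Eif6 or with Eef1 or Eef2, apart from Eif2ak2, and that reached a signal of 100 on at least 1 array. For each gene the brightest probe set was kept, which gave 54 of the 9678 genes tested. On the array 57 genes have such a symbol, and Eef2kmt, Eif2s3y and Eif4a3 stayed below 100 on all 6 arrays, with highest signals of 12.1, 19.7 and 17.8. Eif1, Eif2s1, Eif4g1 and some other factors, such as Eif3g, were not analysed here. The rule uses the gene symbol and the signal.

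The samples were 3 pre-B cell lines, derived independently from WT mice and transformed with the v-Abl kinase, which keeps lymphocyte precursors dividing. All 3 lines carry an Eμ-Bcl2 transgene, which is driven in B lineage cells and counters apoptosis, so that cells at both doses share it. All were arrested in G1 with 3 μM STI-571 (imatinib, a blocker of the Abl kinase) for 48 hours, so that the arrays describe transformed cells held at 1 stage of the cycle. Each line then received 1 Gy of γ-rays at 0.72 Gy per minute or a mock treatment (0 Gy), and RNA was collected 2 hours later, which gave 3 arrays at 1 Gy and 3 at 0 Gy.

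Initiation factors bring the initiator tRNA, the small ribosomal subunit and the capped mRNA together and find the start codon, and elongation factors then bring in each aminoacyl-tRNA and move the ribosome along the message. In mammalian cells the rate of initiation is set mostly by a pair of controls. Phosphorylation of eIF2 by stress-sensing kinases turns its exchange factor eIF2B down, and the eIF4E-binding proteins keep the cap-binding protein eIF4E from its scaffold until mTORC1 phosphorylates them. Elongation has its own brake, the kinase eEF2K, which phosphorylates and inactivates eEF2. These controls act on proteins, whereas the values here are levels of mRNA.

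The signals are linear array signals in arbitrary units, scaled by the authors so that each array has a mean of 500 once the 2% of probe sets at either end are trimmed. On the 6 arrays 41.7% to 43.8% of probe sets reached 100, and median signals were 51.6 to 59.4. Of the markers of pre-B cells 9 of 9 were at 100 or above on all arrays, as against 0 of 6 T cell, 0 of 3 erythroid and 0 of 5 stromal markers. Within the pre-B list Rag1 and Rag2, the recombinase genes, were lower at 1 Gy in 3 of 3 lines, with signals of 4507 to 5674 and 234 to 355 at 1 Gy, against 13333 to 18772 and 1105 to 1862 at 0 Gy, and the 9 summed to 80066 to 107221 at 1 Gy and 104591 to 115660 at 0 Gy. Among 6 myeloid markers only Itgam, a subunit of an integrin, was at 100 or above on all arrays. It had 234.6 to 341.8 at 1 Gy and 130.1 to 163.2 at 0 Gy. The signals of the 6 summed to 371 to 469 at 1 Gy and 246 to 320 at 0 Gy. The beta-actin controls, whose 3′ signal over 5′ signal is a sign of RNA quality, had a ratio of 1.32 ± 0.06 at 1 Gy and 1.45 ± 0.05 at 0 Gy (SD, n = 3 each), lower at 1 Gy in 3 of 3 lines. The parts that these measures have in the results were not tested. Because the arrays are scaled and the samples are bulk RNA, fewer transcripts per cell and fewer cells that hold them cannot be told apart.

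Of the 54 translation factor genes, 2 fell and 0 rose in irradiated cells. Eef2k, which encodes the inhibitory kinase of eEF2, was 2.61-fold lower, and Eef1akmt2, which encodes a lysine methyltransferase of eEF1A, was 1.77-fold lower. With the cell line as a block, which compares each line with itself, Eif2ak4 (the amino acid-sensing eIF2α kinase GCN2) also fell and Eif2s2 (the β subunit of eIF2) rose. The calls are those with an adjusted p under 0.05 in limma, and over all genes tested the same fit called 5.31% (2.11% higher and 3.2% lower at 1 Gy). With the block it called 21.3% of all genes (6.61% higher and 14.7% lower) and 1 higher and 3 lower of the 54. At an unadjusted p under 0.05 the fit without the block gave 6 members higher (Eif2s2, Eif3c, Eif4e, Eif4e2, Eif5 and Eif6) and 4 lower (Eef2k, Eef1akmt2, Eif2ak4 and Eif4ebp2), beside 8.36% and 16.7% of all genes. Without the filter on dim probe sets, or when any 1 array or (under the block) any 1 line was left out, 0 of the 54 passed. Over all genes, 1 higher and 0 lower passed without the filter. Leaving out an array or a line gave, over all genes, 0 to 80 higher and 0 to 73 lower calls, against 204 and 310 with all 6 arrays, and with each array scaled to a common median the full set gave 178 and 147.

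Most members lay close to 0. The log2 fold change, 1 Gy minus 0 Gy, was within 0.25 of 0 in 29 of 54 members, beside 42.1% of all genes, and 7 members reached a 1.5-fold difference in either direction, beside 27% of all genes. The median log2 fold change of the members was 0.03, and that of all genes tested was -0.11 (-0.04 and -0.08 after quantile normalization). In the 3 lines taken one by one the members' median was 0.03, -0.02 and 0.16. The median size of the change, whatever its sign, was 0.22 for the members and 0.31 for all genes. The members were bright, with a median signal of 3788 against 855.4 for all genes. Among the genes with a mean signal of 1000 or more, the median size of the change was 0.22 for 45 members and 0.23 for all 4408 genes. The signed medians of these bright genes were 0.08 and 0.00035, all 3 lines were higher at 1 Gy in 17 of the 45 and 1446 of the 4408, and all 3 were lower in 9 and 1494. By limma 5.81% of the 4408 were called without the block and 18.9% with it. In 18 members all 3 lines were higher at 1 Gy and in 13 all 3 were lower, beside 23.7% and 41.3% of all genes. The 1 Gy and 0 Gy arrays did not overlap in 12 members that were higher at 1 Gy and in 7 that were lower, beside 12.3% and 20.6% of all genes. These shares describe the members and were put to no test.

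**Figure D1:**
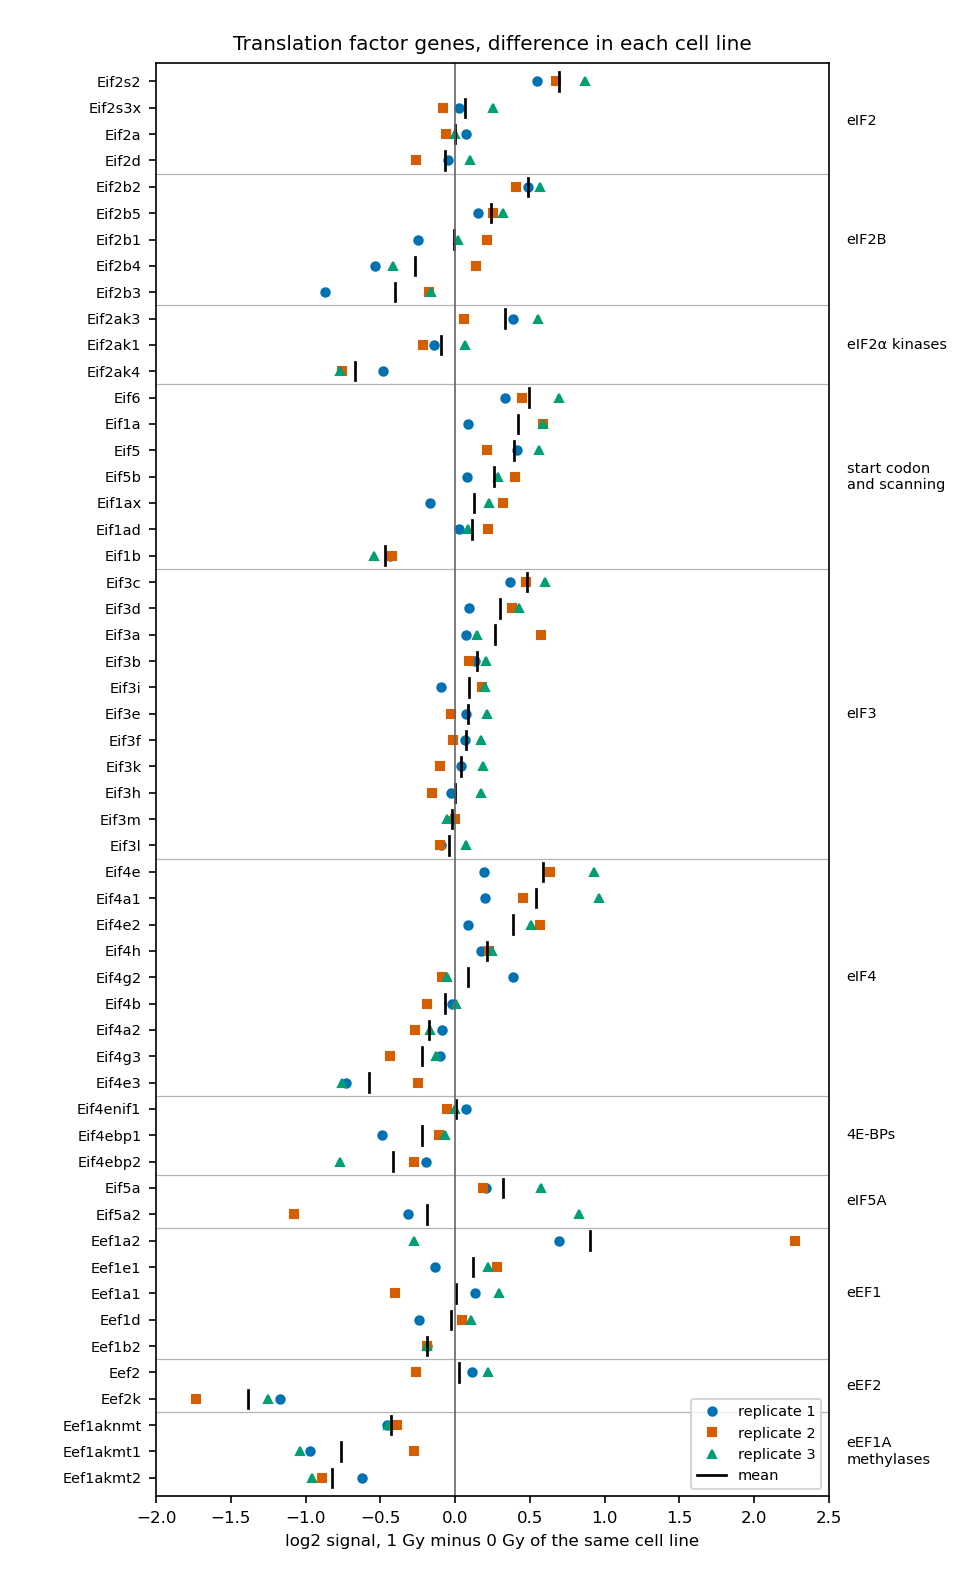
Difference in log2 signal, 1 Gy minus 0 Gy of the same cell line (x axis), for the 54 translation factor genes grouped by role (y axis). Each symbol is 1 of the 3 cell lines and the black line is their mean. Eef2k and Eef1akmt2 lie left of 0 in 3 of 3 lines, Eif2s2 lies right of 0 in 3 of 3, and 29 of the 54 means lie within 0.25 of 0.

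The eEF2 kinase showed the largest fall among the members. Eef2k had signals of 3328, 2870 and 3782 in lines 1, 2 and 3 at 1 Gy, against 7474, 9544 and 9012 at 0 Gy. The highest irradiated line was below the lowest mock line, and each line fell. The log2 fold change was -1.38 (SE 0.17), and limma gave an adjusted p of 0.0233 and of 0.0156 with the block. All 3 of its probe sets fell, and the 2 dimmer ones had log2 fold changes of -1.40 and -1.72 with adjusted p of 0.0183 and 0.0123 from limma. The target of the kinase, Eef2, had signals of 24956, 18833 and 21770 at 1 Gy and 23092, 22586 and 18642 at 0 Gy. The groups overlapped and the lines differed in direction, with a log2 fold change of 0.02 (SE 0.17, adjusted p = 0.954 from limma) that turned to -0.10 after quantile normalization.

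Among the eEF1 genes no change passed the test. Eef1a1, which encodes the main factor that delivers aminoacyl-tRNA to the ribosome and was the brightest member, had signals of 46528, 29498 and 40876 at 1 Gy and 42383, 38977 and 33295 at 0 Gy. These overlapped, and the log2 fold change was 0.01 (SE 0.22), or -0.04 after quantile normalization. Eef1b2 and Eef1d encode subunits of the complex that reloads eEF1A with GTP. They had log2 fold changes of -0.19 (adjusted p = 0.561 from limma) and -0.03. Eef1e1, which encodes a small protein of the tRNA synthetase complex, had 0.12. Eef1a2, the isoform of muscle and neurons, was dim. Its signals were 127.9, 133.2 and 153.9 at 1 Gy and 78.9, 27.5 and 185.6 at 0 Gy, so that the 0 Gy lines spread around the 1 Gy lines and the log2 fold change of 0.90 had an SE of 0.67.

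All 3 genes of elongation factor methyltransferases were lower at 1 Gy in 3 of 3 lines, beside 41.3% of all genes. Of these 3 genes, 1 passed the test. Eef1akmt2 had signals of 473, 393 and 426 at 1 Gy, against 727, 729 and 827 at 0 Gy. Its doses did not overlap, and the log2 fold change was -0.82 (SE 0.14, adjusted p = 0.0393 from limma and 0.0239 with the block). Scaling to a common median gave -0.77, which did not pass. Eef1akmt1, whose product methylates another lysine of eEF1A, had 130.2, 230.6 and 59.7 at 1 Gy, against 255.0, 279.2 and 122.5 at 0 Gy. The lines differed more from each other than the doses did. The log2 fold change of -0.76 (SE 0.57) had an adjusted p of 0.491 from limma and 0.0619 with the block. Its tested probe sets all had negative values, -0.76 to -0.12, and the dimmest was lower in 2 of 3 lines. Eef1aknmt, which encodes the enzyme that methylates the N terminus and a lysine of eEF1A, had a log2 fold change of -0.43 (SE 0.29, adjusted p = 0.449 from limma and 0.0620 with the block). Its probe sets differed in sign.

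**Figure D2:**
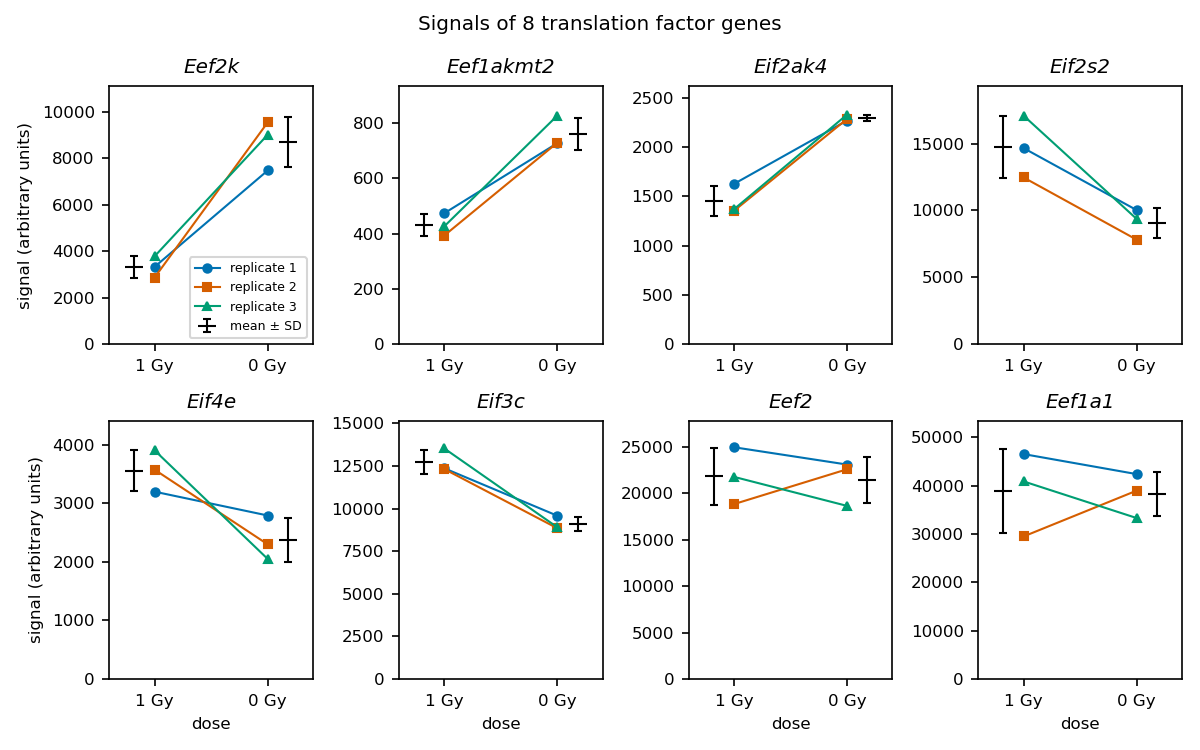
Signals in arbitrary units (y axis, starting at 0) of 8 translation factor genes at 1 Gy and 0 Gy (x axis), with lines joining the 2 arrays of a cell line and the mean ± SD of each dose beside them. The doses do not overlap in Eef2k, Eef1akmt2, Eif2ak4, Eif2s2, Eif4e and Eif3c, and they overlap in Eef2 and Eef1a1.

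eIF2 carries the initiator tRNA to the small subunit. Eif2s2 had signals of 14661, 12466 and 17086 at 1 Gy, against 10024, 7814 and 9360 at 0 Gy. No overlap was seen between the doses, and the log2 fold change was 0.70 (SE 0.18), with an adjusted p of 0.0914 from limma and of 0.0308 with the block. Its 6 tested probe sets all had positive values, 0.49 to 0.70, and 1 of the dimmer ones passed without the block (adjusted p = 0.0467 from limma). Eif2s3x, which encodes the GTP-binding γ subunit, had 0.07 on the log2 scale (SE 0.16, adjusted p = 0.851 from limma). Eif2a and Eif2d encode proteins that can bring tRNA to the ribosome without eIF2, and had 0.00 and -0.07.

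The 5 genes of eIF2B, the factor that reloads eIF2 with GTP, went in both directions and 0 passed. Eif2b2, the β subunit, had signals of 5533, 5821 and 8429 at 1 Gy and 3951, 4385 and 5674 at 0 Gy. The groups overlapped, since the lines differed in level, while each line was higher at 1 Gy. The log2 fold change was 0.49 (SE 0.23, adjusted p = 0.282 from limma and 0.0508 with the block). Eif2b5, the catalytic ε subunit, had 0.24, and Eif2b1, Eif2b4 and Eif2b3 (the α, δ and γ subunits) had -0.0044, -0.27 and -0.40. The adjusted p of these 4 were 0.264 to 0.993 in limma.

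The eIF2α kinases differed from each other in direction. Eif2ak4, which encodes GCN2, had signals of 1626, 1353 and 1369 at 1 Gy, against 2269, 2285 and 2329 at 0 Gy. Here the doses were separate and the 0 Gy lines lay close together. The log2 fold change was -0.67 (SE 0.14), with an adjusted p of 0.0548 from limma and of 0.0334 with the block. Without the block it also passed when a signal of 100 was asked of 3 or more arrays (adjusted p = 0.0418 from limma) or when signals under 100 were set to 100 (0.0309). Its dimmer probe set gave -0.49 and was lower in 2 of 3 lines (adjusted p = 0.374 from limma). Eif2ak3, which encodes PERK, the kinase of the endoplasmic reticulum, had 7797, 8269 and 11440 at 1 Gy and 5967, 7926 and 7773 at 0 Gy. These overlapped, with a log2 fold change of 0.33 (SE 0.21, adjusted p = 0.414 from limma). Its 2 dimmer probe sets did not overlap between the doses and had log2 fold changes of 1.12 and 1.08. Their adjusted p from limma were 0.0869 and 0.0590, and 0.0396 and 0.0232 with the block, so that the probe sets of this gene gave different answers. The mean of its probe sets had 0.84 and passed. Eif2ak1, which encodes the heme-regulated kinase HRI, had 443, 587 and 482 at 1 Gy and 487, 682 and 460 at 0 Gy. These overlapped (log2 fold change -0.10, SE 0.21), and the mean of its probe sets gave 0.02.

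**Figure D3:**
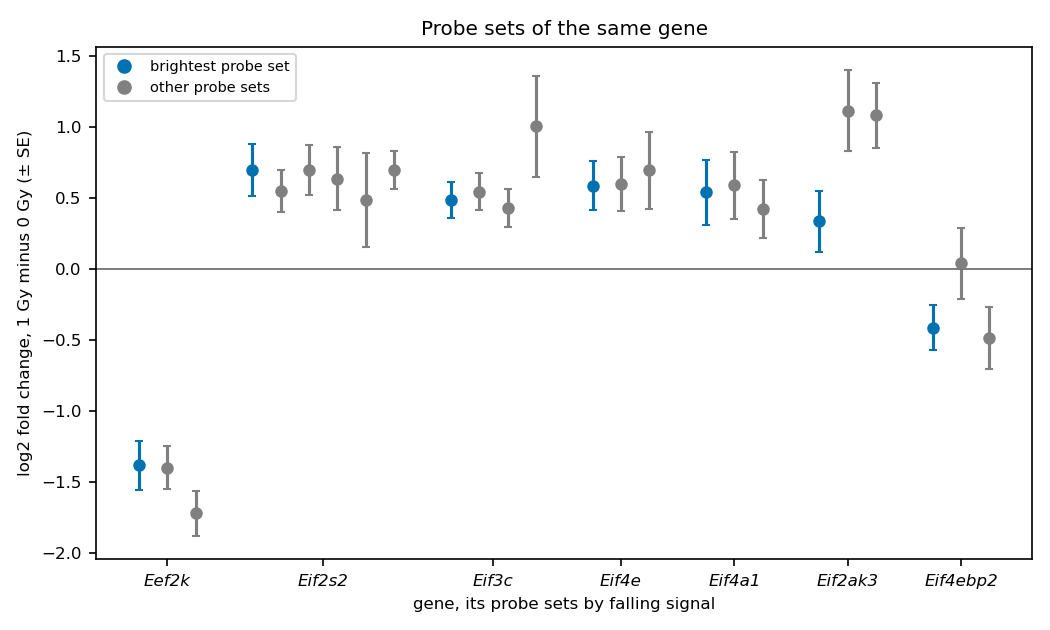
Log2 fold change, 1 Gy minus 0 Gy, with its SE (y axis) for the tested probe sets of 7 genes (x axis), the brightest in blue and the others in grey, in order of falling signal. The 3 probe sets of Eef2k lie between -1.72 and -1.38 and the 6 of Eif2s2 between 0.49 and 0.70, whereas those of Eif2ak3 lie at 0.33, 1.12 and 1.08.

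Among the 7 genes listed under scanning and start codon selection, 6 had positive values, beside 3842 of all 9678 genes, and 0 passed. This list was made by symbol and also holds Eif1ad and the subunit-joining genes Eif5b and Eif6. Eif6, which encodes a factor that keeps the ribosomal subunits apart, had signals of 3407, 3646 and 4425 at 1 Gy, against 2706, 2675 and 2730 at 0 Gy. The groups did not overlap, and the log2 fold change was 0.49 (SE 0.15, adjusted p = 0.125 from limma and 0.0667 with the block). Eif5, the GTPase-activating partner of eIF2, had 0.40, and Eif5b, which joins the subunits, had 0.26. Eif1a, Eif1ax and Eif1ad, of which Eif1a and Eif1ax encode eIF1A, had 0.42, 0.12 and 0.11. Eif1b, a relative of the start codon guardian eIF1, went the other way, with 2078, 1971 and 1444 at 1 Gy, against 2814, 2641 and 2106 at 0 Gy. Each irradiated line lay outside the range of the mock lines, and the log2 fold change was -0.47 (SE 0.21, adjusted p = 0.248 from limma and 0.0541 with the block).

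eIF3 is the large complex that binds the small subunit and links it to the mRNA. The members include 11 of its genes, and not all of them. Of these 11, 8 had positive and 3 negative values, from -0.04 to 0.48 with a median of 0.09, and 0 passed. Eif3c had signals of 12361, 12316 and 13525 at 1 Gy, against 9576, 8842 and 8897 at 0 Gy. The groups did not overlap, and the log2 fold change was 0.48 (SE 0.13, adjusted p = 0.0914 from limma and 0.0563 with the block). Its other 3 probe sets had 0.43 to 1.00, and 1 of them, at 0.55, passed with the block (adjusted p = 0.0463). Eif3d, Eif3a and Eif3b followed with 0.30, 0.27 and 0.15, and their doses did not overlap either. Eif3i, Eif3e, Eif3f, Eif3k and Eif3h had 0.09, 0.09, 0.08, 0.04 and -0.0026, and Eif3m and Eif3l had -0.02 and -0.04. Eif3c had the largest value of the 11.

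The eIF4 factors bind the cap and unwind the leader of the mRNA, and 0 of their 9 genes passed. Eif4e, which encodes the cap-binding protein, had signals of 3198, 3573 and 3903 at 1 Gy, against 2791, 2298 and 2049 at 0 Gy. Both doses stood apart, but line 1 differed little, with a log2 difference of 0.20 against 0.64 and 0.93 in lines 2 and 3. The log2 fold change was 0.59 (SE 0.17, adjusted p = 0.116 from limma and 0.0883 with the block), and its 2 other tested probe sets had 0.60 and 0.69. Eif4a1, which encodes the RNA helicase of the complex, had 14197, 12654 and 13642 at 1 Gy, against 12325, 9230 and 6986 at 0 Gy. These did not overlap, and the lines differed by 0.20, 0.46 and 0.97 on the log2 scale, for a log2 fold change of 0.54 (SE 0.23, adjusted p = 0.232 from limma). Its paralog Eif4a2 had -0.18. Eif4e2, whose product binds caps and represses initiation, had 0.39, and Eif4e3, a cap-binding relative, had 1311, 2184 and 1147 at 1 Gy and 2178, 2587 and 1933 at 0 Gy. The doses of Eif4e3 overlapped, and the log2 fold change was -0.58 (SE 0.28, adjusted p = 0.286 from limma and 0.0687 with the block). The helicase cofactors Eif4h and Eif4b had 0.22 and -0.07. The scaffold relatives Eif4g2 and Eif4g3 had 0.08 and -0.22.

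The genes of the eIF4E-binding proteins did not pass. Eif4ebp1 had signals of 1977, 1984 and 2374 at 1 Gy and 2771, 2140 and 2483 at 0 Gy. These overlapped, with a log2 fold change of -0.22 (SE 0.16, adjusted p = 0.487 from limma). Eif4ebp2 had -0.41 (SE 0.16, adjusted p = 0.191 from limma), was lower in 3 of 3 lines and did not overlap between the doses, while another of its probe sets gave 0.04. Eif4enif1, which encodes the protein that carries eIF4E into the nucleus, had 0.01. Of the eIF5A genes, whose product helps the ribosome through difficult peptide bonds, Eif5a had 0.32 (adjusted p = 0.422 from limma) and the dim Eif5a2 had -0.19 (SE 0.59).

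Of the 54 members 35 had 2 or more tested probe sets, which all had the same sign in 24 and differed in sign in 11. Over all 21762 probe sets tested limma called 4.48% without the block and 18.3% with it. Among the genes with several probe sets that were named above for their size of change, Eef2k, Eif2s2, Eif3c, Eif4e, Eif4a1, Eif6, Eif2b2, Eif2ak3 and Eif2ak4 had 1 sign throughout.

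The start regions of the members were read for short motifs. RefSeq promoter sequences (250 bases before to 50 after a start, build GRCm38.p6) were matched for 43 of 54 members, and 7 of these have several starts. The letters CACGTG, the E-box of Myc and related factors, which read the same on both strands, stood in 12 of 43 members (27.9%), in 8.09% of all 27025 genes with such a sequence and in 12.6% of the 7912 of them that were tested here. The 12 include Eef2k, Eef2, Eif1b, Eif4e and Eif4a1, with log2 fold changes of -1.38, 0.02, -0.47, 0.59 and 0.54, and their median was 0.06, against 0.01 in the other 31. The stretches below show that motif (in capitals) in the member that fell most, in the gene of its target and in Eif1b. They cover 130 bases before the start, 5′ to 3′ on the plus strand. The places are chr7:120842701-120842830 for Eef2k (1 of its 3 starts), chr10:81176501-81176630 for Eef2 and chr9:120492476-120492605 for Eif1b. The start of Eef2k was taken because its stretch holds the motif. That stretch lies downstream of the annotated start of the gene, chr7:120842642.
Eef2k: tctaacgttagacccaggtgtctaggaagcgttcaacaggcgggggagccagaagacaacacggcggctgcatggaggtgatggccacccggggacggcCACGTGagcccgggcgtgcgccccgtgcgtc
Eef2: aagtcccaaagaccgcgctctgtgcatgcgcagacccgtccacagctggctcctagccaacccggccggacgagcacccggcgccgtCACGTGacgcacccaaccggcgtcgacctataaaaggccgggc
Eif1b: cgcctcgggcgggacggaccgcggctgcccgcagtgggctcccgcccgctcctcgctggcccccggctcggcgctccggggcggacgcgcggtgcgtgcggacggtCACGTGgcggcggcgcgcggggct
The motif begins 31 bases before the start taken for Eef2k, 43 before that of Eef2 and 24 before that of Eif1b.

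The letters GGAAGTG, a core of the sites of ETS factors, on either strand stood in 10 of 43 members (23.3%), in 12.5% of all genes and in 18.5% of those tested. The 10 were Eif2s2, Eif4e, Eif4a1, Eif2b2, Eif3c, Eif5, Eif5a, Eif3d, Eif2a and Eif5a2. Their log2 fold changes ran from -0.19 to 0.70 with a median of 0.44, against a median of 0.01 in the other 33 matched members. The motif was one of 7 patterns read and the split was noticed after the values were known, so that it is a description with no test. The stretches below show it (in capitals, as GGAAGTG or, on the other strand, CACTTCC) in genes with values of 0.40 to 0.54. They again cover 130 bases before the start, at chr7:126566367-126566496 (minus strand) for Eif3c, chr11:69672424-69672553 (minus strand) for Eif4a1, chr12:85219351-85219480 (plus strand) for Eif2b2 and chr12:111537971-111538100 (plus strand) for Eif5.
Eif3c: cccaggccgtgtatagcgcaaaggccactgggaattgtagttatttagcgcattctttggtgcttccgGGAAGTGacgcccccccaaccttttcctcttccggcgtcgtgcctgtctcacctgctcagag
Eif4a1: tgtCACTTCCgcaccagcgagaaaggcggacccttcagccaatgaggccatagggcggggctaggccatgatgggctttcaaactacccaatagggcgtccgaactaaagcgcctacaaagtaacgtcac
Eif2b2: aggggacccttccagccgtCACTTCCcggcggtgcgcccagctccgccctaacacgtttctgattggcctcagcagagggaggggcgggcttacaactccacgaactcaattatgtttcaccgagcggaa
Eif5: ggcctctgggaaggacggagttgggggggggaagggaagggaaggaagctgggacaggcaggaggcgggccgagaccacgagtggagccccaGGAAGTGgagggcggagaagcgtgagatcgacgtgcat
It begins 62, 127, 111 and 38 bases before the start in Eif3c, Eif4a1, Eif2b2 and Eif5.

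GGGCGG, the GC box, stood in 74.4% of the members and 70.7% of the genes tested, and CCAAT in 37.2% and 43.5%, both on either strand. A C followed by 5 pyrimidines within 10 bases of the start, on the transcript strand, stood in 23.3% and 22.8%. The run that marks mRNAs whose translation follows mTORC1 begins at the cap itself. This pattern is looser, so that these shares do not count such mRNAs, and Eef2 and Eef1b2 were without it. TGACGTCA, the cAMP response element, stood in 1 member (2.33% against 3.96%). TTGCATCA, which ATF4 and its partners bind, stood in 0 members and in 0.708% of the genes tested.

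Other genes of translation were set beside the factors, 117 in 6 lists. Without the block limma called 4 of them higher and 0 lower, and with it 20 higher and 1 lower, beside the same 5.31% and 21.3% of all genes. When any 1 array was left out, 0 of the 117 passed. Of the 21 genes of cytosolic aminoacyl-tRNA synthetases and their scaffolds, which charge tRNAs, Iars, Aars and Vars rose, Vars at the edge of the threshold, and 10 rose with the block. Iars had signals of 8254, 7124 and 8962 at 1 Gy, against 3898, 3665 and 4188 at 0 Gy. The groups did not overlap, and the log2 fold change was 1.05 (SE 0.15, adjusted p = 0.0288 from limma). Aars had 0.96 (adjusted p = 0.0406 from limma), and Cars and Nars, which passed with the block but not without it, had 1.41 and 0.84. The median of this list was 0.41. In 13 of the 21 all 3 lines were higher at 1 Gy and in 3 all 3 were lower, beside 23.7% and 41.3% of all genes. Those lower were Farsb, Qars and Wars, with log2 fold changes of -0.50, -0.36 and -0.12, and they did not pass in either fit.

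Of 12 genes of the eIF2α phosphatase and of the integrated stress response, Ppp1r15a rose and 6 rose with the block. That response follows phosphorylation of eIF2α. Over all genes the 2 fits called 2.11% and 6.61% higher. The median of this list was 0.68. Ppp1r15a encodes GADD34, which brings a phosphatase back to eIF2α. It had 1712, 1865 and 2862 at 1 Gy, against 613, 629 and 739 at 0 Gy. Again the doses stood apart, and the log2 fold change was 1.67 (SE 0.23, adjusted p = 0.0279 from limma). With the block Asns, Atf5, Chac1, Ddit3 and Atf4 also rose, with log2 fold changes of 1.25, 1.09, 1.01, 0.83 and 0.53 and adjusted p of 0.0200 to 0.0487 from limma. ATF4 and ATF5 are the transcription factors of this response and Ddit3 encodes CHOP, which ATF4 induces. In 8 of the 12 all 3 lines were higher at 1 Gy and in 2 all 3 were lower. Those lower were Ppp1ca and Impact, with log2 fold changes of -0.24 and -0.20, and they did not pass in either fit.

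In the 17 genes of mTORC1 and MNK signalling 0 passed limma without the block (3 higher and 3 lower at an unadjusted p under 0.05). With it Sesn2 and Deptor, which encode inhibitors of mTORC1, rose, with log2 fold changes of 1.11 and 1.06 (Deptor was dim, with means of 82.4 at 1 Gy and 41.1 at 0 Gy), and Pdcd4, which encodes an inhibitor of the helicase eIF4A, fell by 0.69 on the log2 scale (adjusted p = 0.0354 with the block). Directions were mixed among these 17 genes, with all 3 lines higher at 1 Gy in 7 and all 3 lower in 7. The lower 7 include Sesn1 and Sesn3, relatives of Sesn2, and Tsc2. These 3 had log2 fold changes of -0.68, -0.41 and -0.22 and did not pass in either fit. The others of the lower 7, besides Pdcd4, were Mtor, Rptor and Rheb. They encode the kinase of mTORC1, its scaffold and its activator, had -0.50, -0.53 and -0.19, and did not pass in either fit. Etf1, which encodes the release factor eRF1, rose with the block among 13 genes of termination and recycling (0.66). So did Rps27l among 46 ribosomal protein genes (0.60). The 8 mitochondrial factors had 0 calls in either limma fit (1 higher and 1 lower at an unadjusted p under 0.05 without the block), with a median of -0.08. The ribosomal protein genes had a median of 0.03, the same as the translation factors, and 42 of the 46 lay within 0.25 of 0. In lines 1, 2 and 3 taken one by one, the median of the ribosomal protein genes was 0.08, -0.20 and 0.23.

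**Figure D4:**
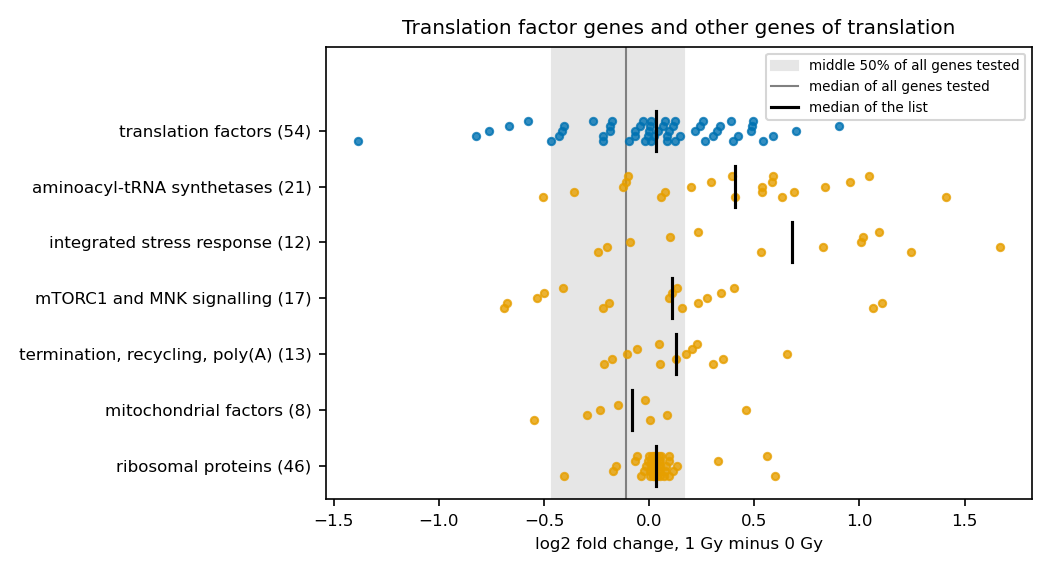
Log2 fold change, 1 Gy minus 0 Gy (x axis), of the 54 translation factor genes (blue) and of 6 lists of other translation genes (orange), with each list's size in brackets (y axis) and its median as a black line. The grey band holds the middle 50% of all genes tested around their median of -0.11, and the medians of the translation factors and the ribosomal proteins are 0.03, those of the synthetases and the integrated stress response 0.41 and 0.68.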

How the data were processed

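RNA of the 6 samples was hybridised to Affymetrix Mouse 430 2.0 arrays. Each probe set has 1 linear intensity value, as deposited by the authors. MAS5 is named in the submitters' processing notes, and every array is scaled to a mean of 500 after trimming 2% of probe sets at either end. The study's own analysis used another background correction and quantile normalization, so that its signals are not those used here. Signals under 1 were set to 1 and log2 was taken. Without the 64 control probe sets 45037 remained, and the 21762 that reached 100 on 1 or more arrays entered limma 3.58.1 (R 4.3.3). Dose was its sole factor, after the study's ANOVA. Benjamini-Hochberg adjustment ran over all of them, and genes were counted by their brightest probe set. The p-values of this fit measure the spread between lines.

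Replicate numbers mark the lines, by the design text. Deviations from the group means correlated at 0.668 to 0.781 in the 3 same-numbered pairs, so that arrays were paired by number. The 6 other pairs had -0.495 to -0.0525. Deviations cancel out over the 3 arrays of a dose, so these negative values follow in part from the 3 positive ones. A second fit took the line as a block, and its p-values measure how the dose difference varies from line to line. Gene names come from the platform annotation, and 8 probe sets that list several genes, one of them a factor, were not used. The text gives signals for members called in either fit, for the 6 largest rises and 6 largest falls seen in 3 of 3 lines where the brighter dose averaged 100 or more, and for Eif2ak1, Eif2ak3, Eif4ebp1, Eef1a1 and Eef2. The members and lists were chosen with earlier results of these data known. The fits were tested on simulated data. Alternatives were the filter, normalization, log scale, a floor of 100, the methods' t-test, the choice of probe set and leaving out each array or line. The number of arrays limits the precision.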

Additional observations from a re-analysis of the deposited data

How the results depend on the processing

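The cause of each shift was not tested unless the setting itself gives it. With the replicate block, 1 translation factor gene was called higher and 3 lower, against 0 and 2 without it. The block called 20 other translation genes higher and 1 lower, against 4 and 0, and 640 and 1419 of all genes, against 204 and 310. Without a filter, 0 members, 0 other translation genes and 1 higher and 0 lower of all genes passed. With a minimum of 100 on 3 or more arrays, 3 members were lower (Eif2ak4 added, adjusted p = 0.0418 from limma) and 7 other translation genes were higher. After quantile normalization Eef1a1 and Eef2 had log2 fold changes of -0.042 and -0.101, the reverse of their small positive values. The members' median also changed sign, to -0.038, and that of all genes was -0.080. With scaling to a common median, 1 member (Eef2k) and 147 of all genes were lower, beside 178 higher. Signals under 100 set to 100 gave 1 member higher (Eif3c) and 3 lower (Eif2ak4 added, adjusted p = 0.0309), 8 other translation genes higher and 492 genes lower. The methods' t-test at a p of 0.05 and 1.5-fold gave 2 members higher (Eif2s2 and Eif4e), with Eef2k, Eef1akmt2 and Eif2ak4 lower. It gave 10 other translation genes higher and 2 lower, and 457 and 932 of all genes. After Benjamini-Hochberg adjustment it gave 0 members lower, 2 other translation genes higher, and 90 and 114 of all genes. The mean of all probe sets gave 1 member higher (Eif2ak3), 8 other translation genes higher and 0.025 for Eif2ak1, the reverse of its value. Log2 of the signal plus 16, and probe sets without shared probes, kept 0 higher and 2 lower.

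Leaving out any 1 array gave 0 members and 0 other translation genes called, and 0 to 33 higher and 0 to 22 lower of all genes, with fewer samples. Leaving out 1 line under the block gave 0 and 0, and 0 to 80 higher and 0 to 73 lower of all genes. Over these settings Eef2k ranged from -1.49 to -1.21 and Eef1akmt2 from -0.92 to -0.75, and neither passed. Without 1 array, sign changes were seen in Eef1a1 (-0.131 to 0.198), Eef2 (-0.076 to 0.127) and Eif2ak1 (-0.212 to 0.078). Under the block Eef1a1 had -0.053 and -0.134 without lines 1 and 3, and Eef2 had -0.019 and -0.075. Over the settings that left out an array or a line, the members' median was -0.00071 to 0.106.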
